A study of Mus musculus with 29 samples.

Results

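Transcripts of the ionotropic glutamate receptor subunits were examined in single mouse retinal ganglion cells (RGCs). The set comprised 10 genes, chosen by name as subunits of the AMPA receptors (*Gria1*, *Gria2*, *Gria3* and *Gria4*), the NMDA receptors (*Grin1*, *Grin2a*, *Grin2b* and *Grin3a*) and the kainate receptors (*Grik2* and *Grik5*). Of these, 9 had a named probe set on the array, out of 18194 genes with one, and they were read by 21 of the 45101 probe sets. *Grin1*, the obligatory NMDA subunit, had no probe set under its name in the annotation used and was not analysed here.

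The cells came from retinas of adult C57BL/6 mice (C57BL/6J in the study's methods), for which the labels list no transgene and no treatment other than the light stimuli. Each of the 29 RGCs was recorded in cell-attached mode, classified by its responses to light stimuli and then aspirated. The cDNA of each cell was primed with oligo dT, tailed, amplified by PCR and hybridized to 1 Affymetrix mouse genome array. The 8 direction-selective (DS) cells were ON DS cells (4) or ON-OFF DS cells (4), while the 9 alpha cells comprised 2 ON alpha, 4 OFF sustained (OFF S) alpha and 3 OFF transient (OFF T) alpha cells. The 2 orientation-selective (OS) cells were 1 vertically tuned (ON vOS) and 1 horizontally tuned (ON hOS) cell. The remaining 10 cells were 2 suppressed-by-contrast (SbC) cells and single examples of the ON pixel encoder (PixON), local edge detector (LED), ON sustained non-alpha (ON S non-alpha), EyeWire 4i, J-RGC, OFF high speed selective, EyeWire 6sn and EyeWire 6sw subtypes. The study describes the same protocol for all of them. Its methods name DNA facilities at Iowa State and the University of Iowa for the hybridization, and the labels do not say which array was run where. Each cell is named below by its subtype and its number from 1 to 29 in the labels. The animal behind each cell is not given in the labels. Cells of 1 subtype could share an animal, so groups were compared by description, without a test, and the ranges below describe these cells only.

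RGCs receive their excitatory input as glutamate released by bipolar cells. AMPA receptors are tetramers of the *Gria* products that carry the fast part of that input, and the edited product of *Gria2* keeps a receptor nearly impermeable to calcium. NMDA receptors combine the *Grin1* product with *Grin2* or *Grin3* products and pass calcium when glutamate binds to a depolarized cell, whereas kainate receptors are built from *Grik* products, of which that of *Grik5* needs another kainate subunit as a partner to form a channel.

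The deposited values were MAS5 signals, which are linear hybridization intensities. The mean signal after trimming 2% of probe sets at each end was 1500 on every array, and a gene was called detected in a cell at 3000, which is 2 times that mean. Where a gene had more than 1 probe set, its main probe set was the one whose log2 signal, averaged over the 29 cells, was highest. Since probe sets differ in their response, the signal of one gene was not set against that of another. A signal under the threshold was read as not detected in that library, since a transcript can also be lost in the amplification of a single cell. Intervals behind a share of cells are exact Clopper-Pearson intervals at 95% and account for counting error alone.

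Between 1182 and 4201 genes were detected per cell, with a median of 2908. The pan-RGC genes *Sncg* and *Uchl1* were detected in all 29 cells, and 5 to 13 of 14 RGC marker genes were detected per cell, with the fewest (5) in EyeWire 6sw 21 and SbC 26. Rod photoreceptor genes were present as well. At least 5 of 9 rod genes were detected in 17 cells, while 8 cells had none. These 17 cells are called rod-positive libraries below, and their number is given beside several of the results.

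AMPA subunit genes were the most often detected members. *Gria4* was detected in 20 of 29 cells (69.0%, interval 49.2% to 84.7%), *Gria3* in 13 (44.8%, 26.4% to 64.3%) and *Gria2* in 4 (13.8%, 3.9% to 31.7%). *Gria1*, the subunit best known from hippocampal synapses, was detected in none, which allows a share of up to 11.9%. For comparison, 5.73% of the 18194 genes were detected in at least 20 cells, 13.2% in at least 13 cells and 45.0% in none. Of the other members, *Grik5* was detected in 4 cells (13.8%, 3.9% to 31.7%), *Grin3a* in 3 (10.3%, 2.2% to 27.4%), *Grik2* in 1 (3.4%, 0.1% to 17.8%), and *Grin2a* and *Grin2b* in none.

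**Figure D1:**
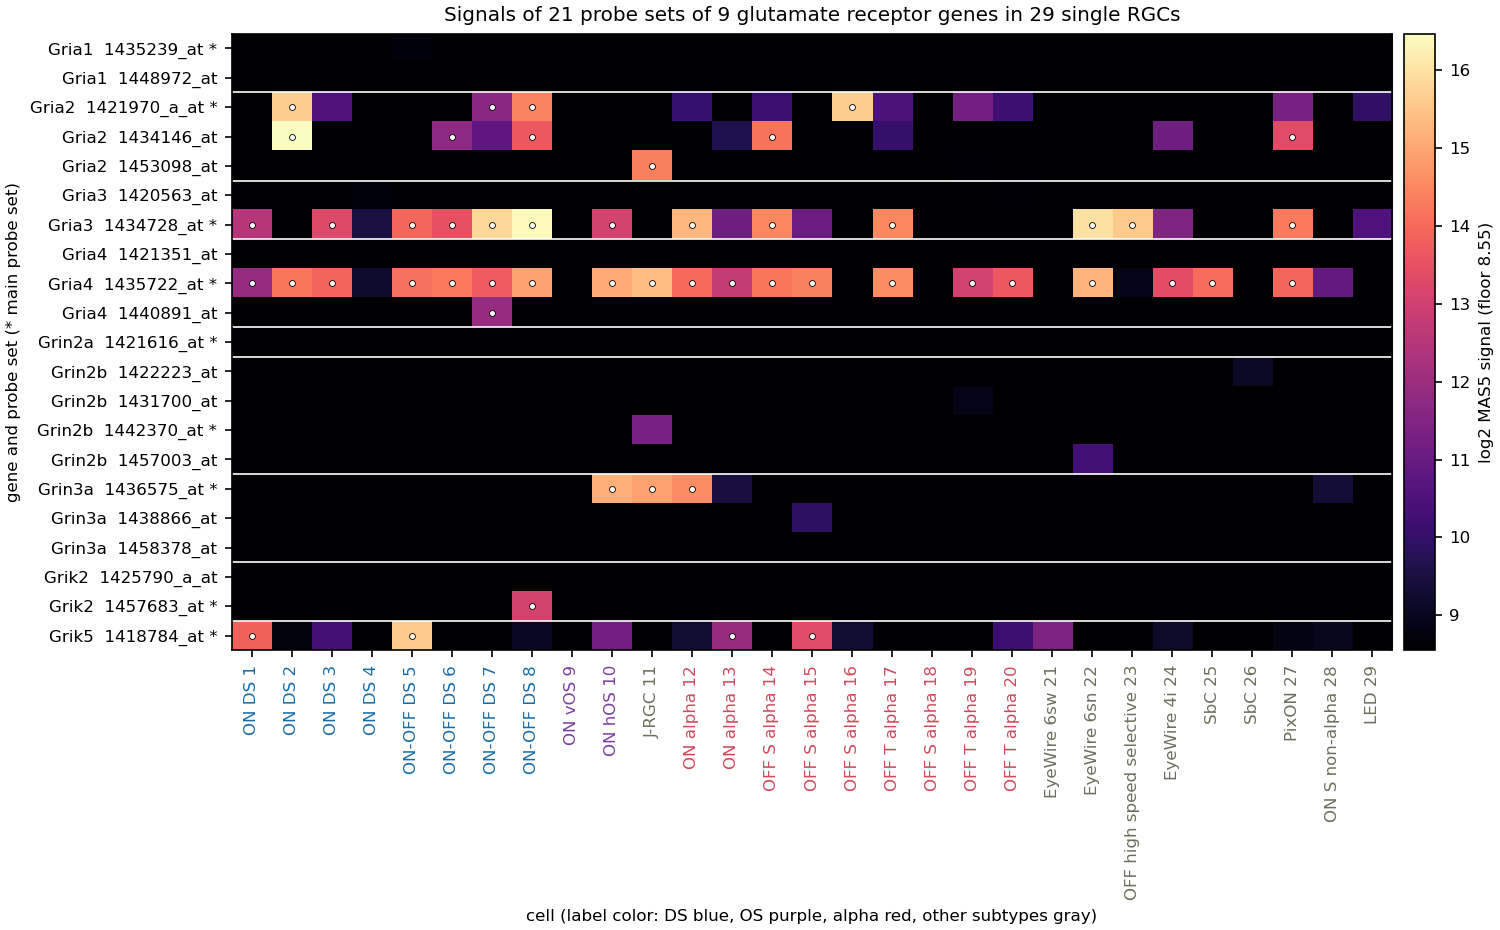
Log2 MAS5 signals (color, floor 8.55) of the 21 probe sets of 9 receptor genes (rows, main probe sets starred) in the 29 cells (columns). White dots mark detected signals. *Gria4* and *Gria3* were each detected mainly at 1 probe set, and the rows of *Gria1*, *Grin2a* and *Grin2b* hold no detected signal.

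*Gria4* encodes an AMPA subunit with rapid gating. In the ON DS cells its signal was 3774, 19158, 15576 and 595 in cells 1 to 4, and in the ON-OFF DS cells it was 17410, 19470, 13619 and 31666 in cells 5 to 8. *Gria4* was detected in 7 of 8 DS cells, with ON DS 4 as the exception. In the ON alpha cells 12 and 13 the signal was 16613 and 7195. In the OFF S alpha cells 14, 15, 16 and 18 it was 18887, 21379, 38.0 and 78.7, so that this subtype was split into 2 cells well above the threshold and 2 cells far below it. All 3 OFF T alpha cells were above it, with 24362, 8494 and 13004 in cells 17, 19 and 20. Among the cells with a subtype of their own, the highest *Gria4* signals were 43560 in J-RGC 11, 38216 in EyeWire 6sn 22 and 35017 in ON hOS 10, while PixON 27 had 15919 and EyeWire 4i 24 had 10937. The SbC cells were discordant, with 17143 in SbC 25 and 198 in SbC 26. Below the threshold were ON S non-alpha 28 at 1931, OFF high speed selective 23 at 481, ON vOS 9 at 190, LED 29 at 53.7 and EyeWire 6sw 21 at 13.7. The weakest detected signal was 3774 in ON DS 1 and the strongest undetected one 1931 in ON S non-alpha 28. At a threshold of 1 times the trimmed mean *Gria4* was detected in 21 of 29 cells, and at 4 times in 19. Of the other *Gria4* probe sets, one was detected in ON-OFF DS 7 only (3841), where the main probe set was detected too, and one in no cell.

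*Gria3*, whose product often shares receptors with other AMPA subunits, had a more uneven distribution. The ON-OFF DS cells all had it, with 15845, 11341, 57113 and 85093 in cells 5 to 8. The ON DS cells varied from cell to cell, with 5792, 4.14, 10019 and 719 in cells 1 to 4. Among alpha cells it was detected in 1 cell of each subtype. ON alpha 12 had 39998 and ON alpha 13 had 2248. The OFF S alpha cells 14, 15, 16 and 18 had 22529, 2169, 4.36 and 9.54, and the OFF T alpha cells 17, 19 and 20 had 23334, 133 and 141. Both OFF alpha subtypes thus contained cells with and without the transcript. Outside these classes it was detected in EyeWire 6sn 22 (65655), OFF high speed selective 23 (49339), PixON 27 (19501) and ON hOS 10 (8829). EyeWire 4i 24 lay just below the threshold at 2871, LED 29 had 1460, and the other cells (J-RGC 11, EyeWire 6sw 21, ON vOS 9, ON S non-alpha 28 and both SbC cells) had between 6.32 and 192. The other *Gria3* probe set was detected in no cell.

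*Gria2*, the subunit that governs calcium entry through AMPA receptors, depended on the probe set. At its main probe set it was detected in OFF S alpha 16 (51688), ON DS 2 (51461) and the ON-OFF DS cells 8 (22140) and 7 (3302), and it was just below the threshold in PixON 27 (2523) and OFF T alpha 19 (2419). The other 23 cells had lower signals. A second probe set was detected in ON DS 2 (90558), OFF S alpha 14 (18525), ON-OFF DS 8 (13150), PixON 27 (10494) and ON-OFF DS 6 (3481). These probe sets agreed in only 2 cells, ON DS 2 and ON-OFF DS 8, out of 7 in which either was detected. The last *Gria2* probe set was detected in J-RGC 11 alone (20826). Counting any probe set therefore doubled the number of *Gria2* cells to 8 of 29 (27.6%), 4 of them DS cells.

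*Gria1* stayed at or below 418 at its main probe set, the highest signal being in ON-OFF DS 5, and its other probe set was detected in no cell either.

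**Figure D2:**
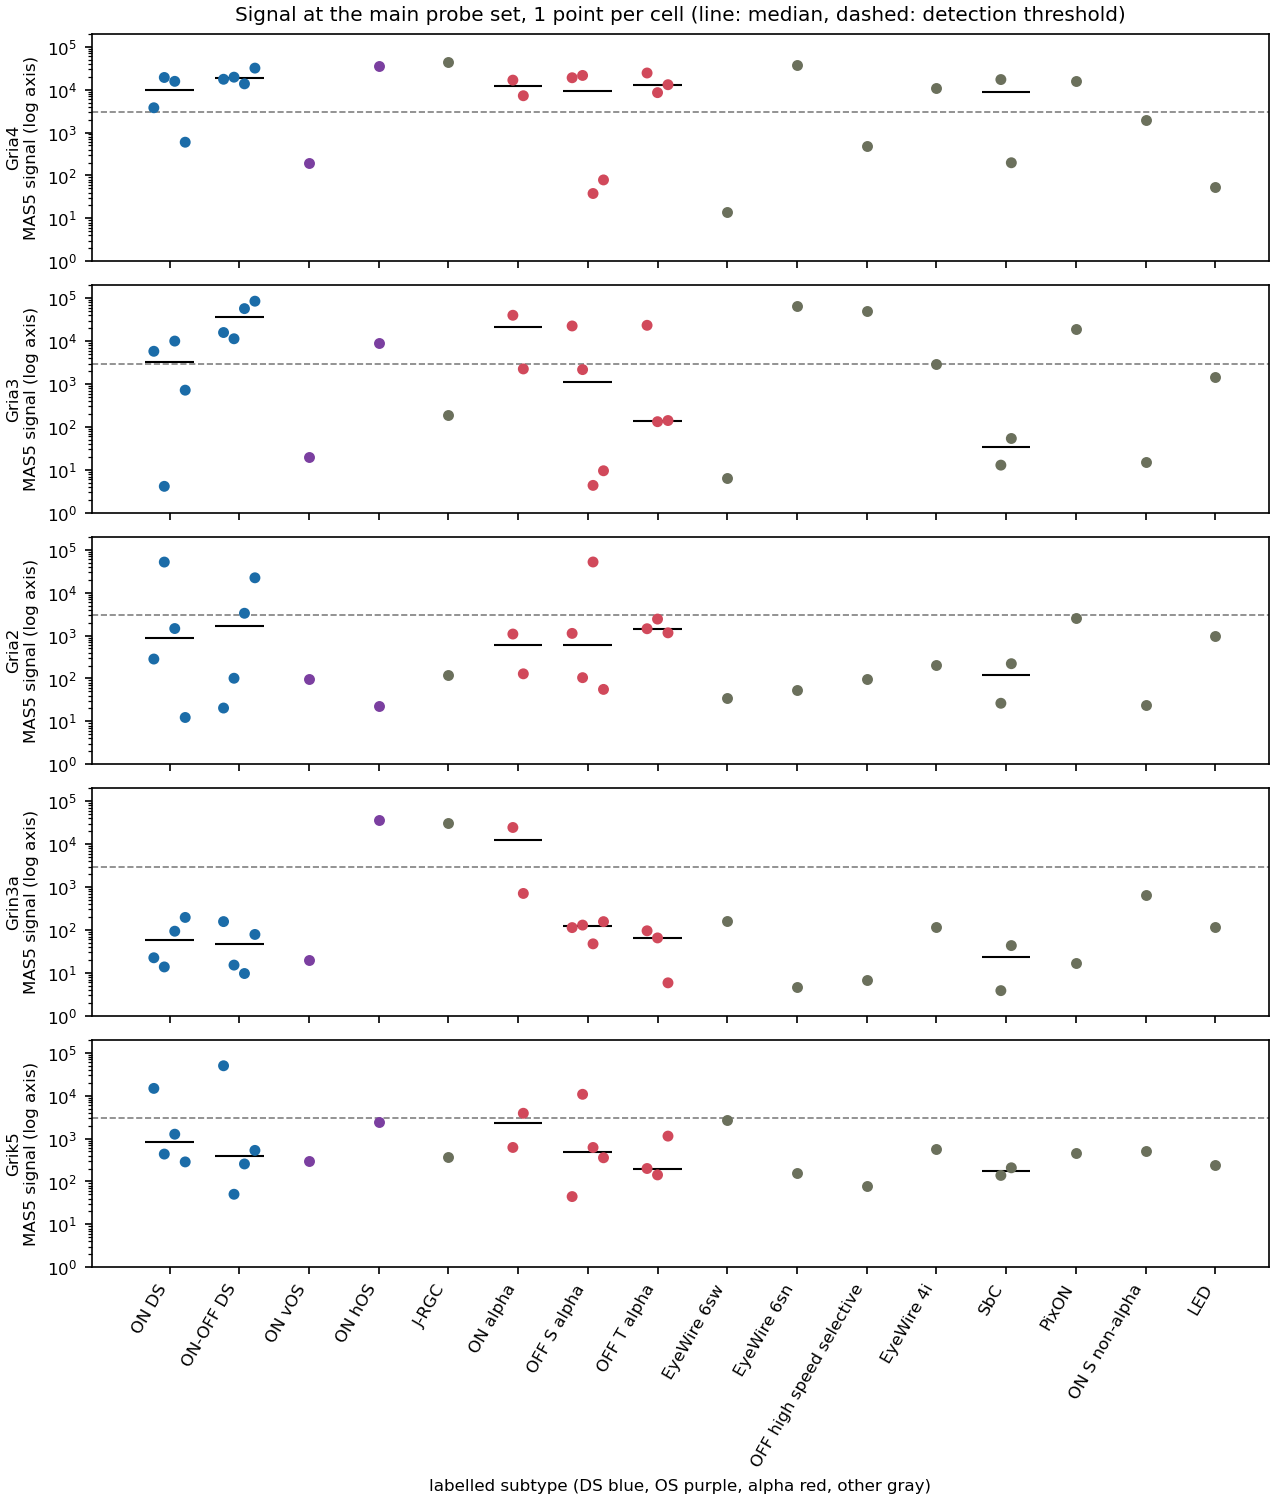
MAS5 signal (log axis) of the 5 members detected in at least 3 cells, at the main probe set, for each labelled subtype. Each point is 1 cell, black lines are medians of subtypes with more than 1 cell, and the dashed line is the detection threshold of 3000. *Gria4* lay above the line in 20 cells, and *Grin3a* in 3 cells that stand far above the other 26.

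Of the NMDA subunits of the set, 1 of the 3 with a probe set was detected. *Grin3a* encodes a glycine-binding subunit that lowers the calcium permeability of NMDA receptors, and it was either high or near background in these cells. The signal was 36368 in ON hOS 10, 31529 in J-RGC 11 and 24407 in ON alpha 12. The next highest signals were 709 in ON alpha 13 and 649 in ON S non-alpha 28, and the remaining 24 cells had 196 or less. These 3 cells were labelled ON hOS, J-RGC and ON alpha, and other cells with an ON label had no detected *Grin3a*. None of the 3 was a DS cell or a rod-positive library, but so few cells are not read as a pattern. The other *Grin3a* probe sets were detected in no cell, the highest signal being 951 in OFF S alpha 15. *Grin2a* and *Grin2b* encode the glutamate-binding subunits of most NMDA receptors in the adult brain. *Grin2a* had a highest signal of 92.5, in EyeWire 6sn 22. *Grin2b* reached 2488 in J-RGC 11 at its main probe set and 1231 in EyeWire 6sn 22 at another, both short of the threshold. *Grin2a* was represented by a single probe set, which had no cell near the threshold, so the lack of detection rests on that probe set.

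Kainate subunit transcripts were detected in 5 of 29 cells (17.2%, 5.8% to 35.8%). *Grik5* was detected in ON-OFF DS 5 (49629), ON DS 1 (14742), OFF S alpha 15 (10734) and ON alpha 13 (3881). EyeWire 6sw 21 (2730) and ON hOS 10 (2387) lay just under the threshold, and the other 23 cells were between 44.5 and 1263. The 4 cells with *Grik5* belonged to 4 different subtypes, and in each of these subtypes the other cells had no detected signal. *Grik2*, a kainate subunit that can form channels by itself, was detected in ON-OFF DS 8 alone (8582), and its highest signal elsewhere was 264 in ON DS 4. *Grik2* and *Grik5* were not detected in the same cell, but with 1 and 4 cells of 29 this is too few to read as exclusion.

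The combinations of subunits were then read cell by cell. The median cell had 2 of the 9 genes detected (1 at a threshold of 4 times the trimmed mean) and the range ran from 0 to 4. At the main probe sets, *Gria3* with *Gria4* and no other member was found in 6 cells (ON DS 3, ON-OFF DS 6, OFF S alpha 14, OFF T alpha 17, EyeWire 6sn 22 and PixON 27). Counting any probe set left this pair in 3 cells, since *Gria2* joined it in ON-OFF DS 6, OFF S alpha 14 and PixON 27, and the trio *Gria2*, *Gria3* and *Gria4* was then found in 4 cells. *Gria4* alone was found in 4 cells (OFF T alpha 19 and 20, EyeWire 4i 24 and SbC 25). *Gria3* and *Gria4* were joined by *Grik5* in ON DS 1 and ON-OFF DS 5, and by *Grin3a* in ON hOS 10 and ON alpha 12. *Gria4* with *Grik5* was found in ON alpha 13 and OFF S alpha 15. The remaining combinations occurred in 1 cell each. They were *Gria2* with *Gria4* in ON DS 2, *Gria2* alone in OFF S alpha 16, *Gria3* alone in OFF high speed selective 23, *Gria4* with *Grin3a* in J-RGC 11, and *Gria2*, *Gria3* and *Gria4* together in ON-OFF DS 7. ON-OFF DS 8 had the same trio of AMPA subunits with *Grik2*, the largest set in any cell.

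At least 1 AMPA subunit gene was detected in 22 of 29 cells (75.9%, 56.5% to 89.7%). None of the 7 cells without an AMPA subunit had an NMDA or kainate subunit of the set. Within the 9 genes, no cell had an NMDA and a kainate subunit together (0 of 29, up to 11.9%), and hence none had all 3 receptor families at this threshold, while 1 cell (3.4%) had them at a threshold of 1 times the trimmed mean, and 1 after quantile normalization. NMDA and kainate subunits were detected in only 3 and 5 of 29 cells, too few to read their separation as exclusion. Of the 13 cells with *Gria3*, 12 also had *Gria4*. Over the 29 cells, the Pearson r of the log2 signals of these genes was 0.48 and Spearman rho was 0.47. The cells share the library preparation and differ in depth, so this is a description only. *Grin3a* and *Grik5* were detected only with *Gria4*, in 3 of 3 and 4 of 4 cells. *Gria4* was detected in 20 of all 29 cells (69.0%), and so few cells cannot be told apart from that share.

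At least 2 AMPA subunit genes were detected in 7 of 8 DS cells (87.5%, 47.3% to 99.7%), in 3 of 9 alpha cells (33.3%, 7.5% to 70.1%), in 1 of 2 OS cells and in 2 of 10 other cells (interval 2.5% to 55.6%). Cells of a class could share an animal and the classes mix subtypes, so these intervals were not used to compare the classes. At a threshold of 1 times the trimmed mean the share of alpha cells was 66.7%, and that of DS cells stayed at 87.5%. Rod-positive libraries made up 3 of the 8 DS cells and 5 of the 9 alpha cells. Without them, the share was 80.0% (4 of 5) in DS cells and 50.0% (2 of 4) in alpha cells.

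No member was detected in 7 cells (ON DS 4, ON vOS 9, OFF S alpha 18, EyeWire 6sw 21, SbC 26, ON S non-alpha 28 and LED 29). Of these, 6 were rod-positive libraries with 8 or 9 of the 9 rod genes, whereas ON DS 4 had none of the rod genes and 10 RGC marker genes. The summed signal of the rod genes ranged from 1103 to 5892520 in these 7 cells, with a median of 1704940, and from 295 to 3564120 in the other 22, with a median of 354637. *Gria4* was detected in 9 of 17 rod-positive libraries and in 11 of the other 12 cells, *Gria3* in 6 of 17 and 7 of 12, and *Grin3a* in 0 of 17 and 3 of 12. Across the 29 cells the number of members detected had r = -0.47 (rho = -0.49) with the number of rod genes, r = 0.59 (0.53) with the number of RGC marker genes and r = 0.38 (0.41) with the number of all detected genes. The part of rod RNA or of depth in these counts was not tested.

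**Figure D3:**
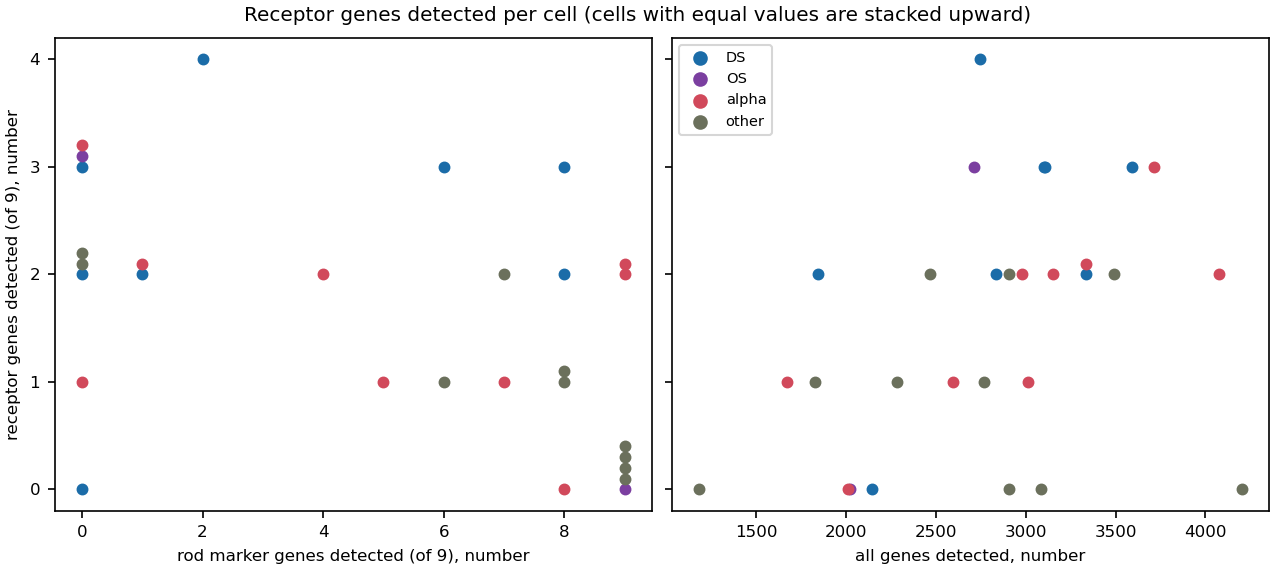
Number of receptor genes detected in each cell (of 9) against the number of rod marker genes detected (of 9, left) and the number of all detected genes (right). Each point is 1 cell, colored by class, and cells with equal values are stacked slightly upward. The cell with 4 members, ON-OFF DS 8, had 2 rod genes, and 6 of the 7 cells without a member had 8 or 9.

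Differences between labelled groups were taken as the difference of median log2 signals, with signals under 375 (8.55 on the log2 scale) raised to that floor, and were called at 4-fold, which is 2 on the log2 scale. The comparison ran over the 7113 genes detected in at least 3 of the 29 cells, of which *Gria2*, *Gria3*, *Gria4*, *Grin3a* and *Grik5* were the members. *Gria1*, *Grin2a*, *Grin2b* and *Grik2* did not reach 3 cells and are given by their counts only.

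DS and alpha cells differed past 4-fold in 1 of these 5 members, *Gria3*, while 18.7% of all genes passed in either direction. The *Gria3* signal ran from 4.14 to 85093 in DS cells, with a median of 10680 and detection in 6 of 8, and from 4.36 to 39998 in alpha cells, with a median of 2169 and detection in 3 of 9. The medians differed by 2.30 on the log2 scale, higher in DS cells, and the cells of the classes overlapped over nearly the whole range. No member was free of overlap, against 0.0281% of all genes. The difference was 0.67 without the rod-positive libraries, under 4-fold, and it was 3.54 to 3.56 without any 1 of the alpha cells 12, 13, 14, 15 or 17. With the mean of all *Gria3* probe sets it was 1.15. The other *Gria3* probe set was detected in no cell, so averaging it in shrinks any difference, and that value does not bear on the result. The summed rod signal was 325 to 1146920 in DS and 872 to 3061640 in alpha cells, and its part in the difference was not tested. *Gria4* was detected in 7 of 8 DS and 7 of 9 alpha cells, with medians of 16493 and 13004 and a difference of 0.34. *Gria2* differed by -0.60, *Grik5* by -0.37 and *Grin3a* by 0.00 at the floor, with *Grin3a* detected in 0 of 8 DS cells and 1 of 9 alpha cells.

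Within the DS class, *Gria3* again was the 1 member of 5 past 4-fold, where 29.2% of all genes passed. Its signals in the 4 ON-OFF DS cells (11341 to 85093) were all above those in the 4 ON DS cells (4.14 to 10019), although the closest cells, ON DS 3 (10019) and ON-OFF DS 6 (11341), were within a narrow margin of each other. Such a lack of overlap was found for 2.09% of the 7113 genes. The medians were 3256 in ON DS and 36479 in ON-OFF DS cells, a difference of -3.88 on the log2 scale (ON DS minus ON-OFF DS). Leaving out 1 cell at a time gave -5.39 to -2.38. The mean of both probe sets gave -1.90, a smaller size that follows from the probe set detected in no cell. *Gria4* was detected in 3 of 4 ON DS and 4 of 4 ON-OFF DS cells, with a difference of -1.26. *Gria2* differed by -0.59, *Grik5* by 0.73 and *Grin3a* by 0.00. Rod-positive libraries were 2 of the 4 ON DS and 1 of the 4 ON-OFF DS cells, with summed rod signals of 325 to 1146920 and 693 to 481672, and the median number of detected genes was 2490 in ON DS and 3219 in ON-OFF DS cells. Without the rod-positive libraries the *Gria3* difference was -4.93, from 2 ON DS and 3 ON-OFF DS cells.

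Among OFF alpha cells, *Gria4* was the 1 member of 5 past 4-fold, against 33.8% of all genes, with a difference of -2.29 (OFF S minus OFF T) and overlapping cells, while 4.39% of all genes had no overlap. The OFF S median rested on the split described above, and the difference turned to 0.54 without OFF S alpha 16 or OFF S alpha 18, and was -5.12 without OFF S alpha 14 or 15. A floor of 1500 gave -1.29, under 4-fold. Averaging all probe sets gave -0.76, a smaller size that follows from the other *Gria4* probe sets, which were detected in no OFF alpha cell. Both cells without *Gria4*, 16 and 18, were rod-positive libraries with 7 and 8 rod genes. The summed rod signal was 227603 to 3061640 in OFF S alpha and 872 to 566668 in OFF T alpha cells. Bipolar cell genes had summed signals of 2338 to 93439 in OFF S and 46.2 to 1892 in OFF T alpha cells. For Muller glia genes the ranges were 166009 to 260833 and 212353 to 399202, in the same order. Of the 8 bipolar genes, *Vsx1*, *Trpm1* and *Lhx4* were detected in no cell. Without the rod-positive libraries, which left 1 OFF S and 2 OFF T alpha cells, the *Gria4* difference was 0.26. The part of this RNA in the difference was not tested. *Gria3* differed by 1.27, *Gria2* by -1.15, *Grik5* by 0.36 and *Grin3a* by 0.00.

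The 2 ON alpha cells differed from the 7 OFF alpha cells past 4-fold in 3 of 5 members, against 34.2% of all genes, and the median difference of all genes was 0.42 in this comparison and 0.00 in the other 3. *Gria3* had a median of 21123 in ON alpha and 141 in OFF alpha cells, a difference of 4.66 with overlapping cells and an OFF alpha median at the floor. It was 2.58 without ON alpha 12, 6.74 without ON alpha 13 and 2.66 with a floor of 1500. *Grin3a* differed by 3.47 and was the 1 member without overlap, where 2.98% of all genes had none. That lack of overlap came from 24407 in ON alpha 12 and 709 in ON alpha 13 against OFF alpha signals all below the floor, at 156 or less. The difference was 0.92 without ON alpha 12 and 6.02 without ON alpha 13. It was 1.16 when all probe sets were averaged, a smaller size that follows from the other *Grin3a* probe sets, detected in no cell. *Grik5* differed by 2.05, and the value was 0.73 without ON alpha 13 and 3.37 without ON alpha 12, 0.69 with a floor of 1500, -0.98 after quantile normalization and -0.88 without the rod-positive libraries. *Gria2* differed by -0.86 and *Gria4* by -0.25. With 2 ON alpha cells, 1 of them a rod-positive library, each of these medians is the midpoint of 2 signals.

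**Figure D4:**
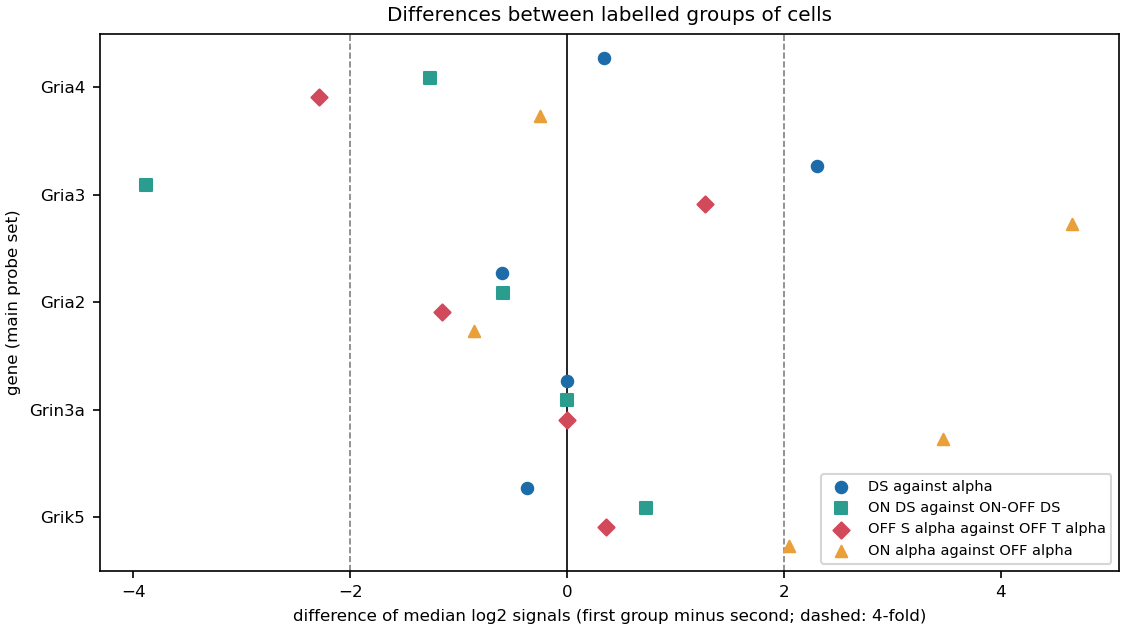
Difference of median log2 signals (first group minus second) of the 5 members detected in at least 3 cells, for the 4 comparisons of labelled groups. Dashed lines mark 4-fold. *Gria3* lies past a line in 3 of the 4 comparisons, at 2.30, -3.88 and 4.66, and *Gria4* in 1, at -2.29.

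Other genes of glutamate signaling, listed by function, were read in the same cells. Of 7 further ionotropic subunits with a probe set, *Grin2d*, an NMDA subunit typical of some interneurons and brainstem neurons, was detected in 6 cells (ON hOS 10, ON alpha 12, ON alpha 13, OFF S alpha 14, SbC 25 and ON S non-alpha 28) and reached 72735 in ON S non-alpha 28. That was more cells than for any of the 3 NMDA subunits of the set with a probe set, and it was found in 2 of the 3 cells with *Grin3a*. The kainate subunit gene *Grik1* was detected in 3 cells, *Grid1* of the delta family in 2, *Grik3* in LED 29 alone (3501) and *Grik4* in SbC 25 alone (31380), while *Grin2c* and *Grin3b* were detected in none. LED 29, ON S non-alpha 28 and EyeWire 6sw 21 (*Grik1*), which had no member of the set, therefore had a transcript of another ionotropic subunit in the library. Each was a rod-positive library with 9 rod genes, and they had 13, 7 and 5 RGC marker genes. Marker genes of further cell types were detected as well. ON S non-alpha 28 had the bipolar gene *Pcp2* (100593), the amacrine gene *Gad1* and the Muller glia gene *Aqp4*. EyeWire 6sw 21 had the bipolar genes *Cabp5*, *Pcp2* and *Otx2*, and LED 29 had *Prkca*. Other genes of these lists, such as *Trpm1*, *Chat* and *Sox9*, were detected in no cell. Whether the receptor transcripts came from the RGC or from other cells was not tested. With the further NMDA and kainate subunits counted beside the set (15 genes), all 3 receptor families were detected in 2 of 29 cells (interval 0.8% to 22.8%). These were ON alpha 13 (*Gria4*, *Grik5* and *Grin2d*) and SbC 25 (*Gria4*, *Grik4* and *Grin2d*), which were rod-positive libraries with 9 and 8 rod genes.

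Auxiliary subunits set the trafficking and gating of AMPA receptors. Of 12 such genes, 9 were detected in at least 1 cell. *Cacng5*, a transmembrane AMPA receptor regulatory protein, was detected in 17 cells, comprising 6 of 8 DS, 2 of 9 alpha, 1 of 2 OS and 8 of 10 other cells. It was found in 14 of the 20 cells with *Gria4* and in 3 of the 9 without. By rod genes, it was found in 10 of 17 rod-positive libraries and in 7 of the other 12 cells. *Cnih2*, a cornichon protein that slows AMPA receptor deactivation, was detected in 11 cells, in 9 of the 20 with *Gria4* and in 2 of the 9 without. It was detected in 3 of 17 rod-positive libraries and in 8 of the other 12 cells, a split that *Gria4* followed too. *Cacng3* was detected in 5 cells, of which 3 were ON DS cells, including ON DS 4 (65493), the DS cell in which no receptor subunit of the set was detected. *Cacng2*, *Gsg1l* and *Shisa9* were each detected in 3 cells, *Cacng4*, *Shisa6* and *Shisa7* in 1 each, and *Cacng7*, *Cacng8* and *Cnih3* in none. The 3 cells with *Cacng2* were all rod-positive libraries. Of the kainate receptor partners, *Neto2* was detected in 3 cells and *Neto1* in none, and neither was found in ON-OFF DS 8, the cell with *Grik2*.

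Of 18 postsynaptic scaffold and trafficking genes, 12 were detected in at least 1 cell. *Nsf*, a general membrane fusion ATPase that also binds an AMPA subunit, was detected in all 29 cells (5940 to 305273). *Sdcbp* was detected in 12 cells, *Dlgap4* in 10, *Pick1* in 9 and *Dlg3* in 8, whereas *Dlg4*, which encodes the best known scaffold of excitatory synapses, was detected in none, with a highest signal of 1134. Among genes acting on AMPA receptors outside and before the synapse, the neuronal pentraxin gene *Nptx1* was detected in 21 cells, and the RNA editing enzyme genes *Adar* and *Adarb1* in 25 and 23. *Nptx1* was detected in 10 of 17 rod-positive libraries and in 11 of the other 12 cells. The same counts were 13 of 17 and 12 of 12 for *Adar*, and 12 of 17 and 11 of 12 for *Adarb1*. *Adarb1* encodes the enzyme that edits the *Gria2* transcript. *Nptx2* and *Adarb2* were detected in none. Metabotropic receptor genes were sparse, with *Grm8* in 4 cells, *Grm7* in 3, *Grm4* in 1 and *Grm2*, *Grm3* and *Grm5* in none of the 29.

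The genes most like each member were named by Pearson r of log2 signals over the 29 cells among 7112 other genes. For *Gria4* they were *Tro* (r = 0.84, rho = 0.70), present in 21 cells and together with *Gria4* in 19, then the neuronal glucose transporter gene *Slc2a3* (0.83, rho = 0.74), which was detected in all 20 cells with *Gria4* and in 4 more, and *Pofut2* (0.78, rho = 0.75). For *Gria3* they were *Fnbp1* (0.76, rho = 0.75), *Pde4dip* (0.75, rho = 0.72) and *Ltn1* (0.68, rho = 0.72). These values changed little without the 2 cells farthest from the median of *Gria4*, at 0.80 to 0.83, and were 0.59 to 0.76 for *Gria3*. The rarer members gave ranks that rested on few cells. *Gria2* was most like *Hdac10* (0.72), *Dvl1* and *Nktr* (0.71 each), *Grik5* most like *Iqsec2* (0.86), *Nup155* (0.81) and *Cchcr1* (0.73), and *Grin3a* most like *Mrs2* (0.76), *Tarsl2* (0.73) and *Pde4d* (0.72). *Iqsec2*, which encodes a postsynaptic exchange factor, was detected in the same 4 cells as *Grik5*. For *Grin3a* the values fell to 0.36, 0.46 and 0.46 without ON hOS 10 and J-RGC 11. All of these are descriptions, since the cells share a library method and vary in depth and in rod RNA, with which *Gria4* itself had r = -0.59 (rho = -0.66).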

How the data were processed

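Single-cell cDNA of 29 functionally classified RGCs was hybridized to 1 array each. MAS5 was the authors' method for the deposited intensity values (version not given in the sources used here). Values ranged from 0.14 to 2096650 over 45101 probe sets. Probe sets of 1 named gene (34958) gave 18194 genes, with symbols updated to RefSeq names, and 932 probe sets of several genes and 9211 without a name were left out. Precision is limited by how many arrays there are.

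The members and the gene lists were chosen with earlier results of these data known. Named were all members and their probe sets, the 3 genes most like each member detected in at least 3 cells, and the genes of the partner lists. Values of *Grin2d*, *Grik1*, *Grik3*, *Grik4* and *Cacng3* in single cells, the receptor families counted over 15 genes, and the detection of *Iqsec2* and *Slc2a3* beside the members, were singled out after they were seen. The shares of DS and alpha cells with at least 2 AMPA subunits were not among the planned results either. The alternatives tried were detection at 1 or 4 times the trimmed mean, other floors, other probe set rules, quantile normalization and leaving out cells. The calculation of differences was tested on simulated log2 signals that were normally distributed and had no floor. That of likeness was tested on copies of *Gria4* with added noise. Neither shows how stable a difference is in these floored signals. Analyses were run in Python 3.11.15 with pandas 2.3.3, scipy 1.17.1 and numpy 2.4.6, and plots were drawn with matplotlib 3.10.9.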

Additional observations from a re-analysis of the deposited data

Results flagged for a closer look

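In 4 of the 14 sets of values examined for a cell far from the others of its subtype, such a cell was found. The rule was run on log2 signals, with signals under 375 raised to that floor. Its limit marks about 1 set in 20 by chance for normally distributed values. Floored signals of transcripts near background in most cells are not so distributed. Among the ON-OFF DS cells, *Grik5* in ON-OFF DS 5 (49629) and *Grik2* in ON-OFF DS 8 (8582) stood apart from the other 3 cells, none of which had the transcript detected. *Gria1* in ON-OFF DS 5 (418) was flagged too, although it was not detected and lay at 8.71 on the log2 scale, against a floor of 8.55. For *Gria1* and *Grik2* the other 3 cells were at the floor, where any signal above it is flagged. These flags thus follow from the floor and say nothing about the size of the gap. Among the OFF S alpha cells, *Grik5* in OFF S alpha 15 (10734) stood apart from the other 3 cells.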

How the results depend on the processing

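Of the alternative values of the counts and shares, 547 stayed within the bounds set for them and 18 moved, and of those of single members' differences 291 stayed, 9 moved and 5 reversed. Without the 17 rod-positive libraries, *Gria4* and at least 1 AMPA subunit were each detected in 91.7% of cells. Leaving out 1 cell at a time gave 85.7% to 100% of DS cells with at least 2 AMPA subunits, the highest without ON DS 4, and 0.0% to 3.6% of cells with *Grik2*, with 0.0% without ON-OFF DS 8. The number of members past 4-fold between DS and alpha cells was 0 with the mean of all probe sets and 0 without the rod-positive libraries. Averaging takes in other probe sets of *Gria3*, *Gria4* and *Grin3a* that were each detected in 1 cell or none. That shrinks any difference of these genes, so the counts with the mean of all probe sets do not bear on them. Between ON DS and ON-OFF DS cells it was 0 with the mean of all probe sets, 2 with quantile normalization, 3 without the rod-positive libraries and 1 to 2 without 1 cell. Between OFF S and OFF T alpha cells it was 0 with a floor of 1500 or the mean of all probe sets, 2 with no floor or quantile normalization, and 0 to 1 without 1 cell, with 0 without OFF T alpha 17. The *Gria4* difference of these cells reversed to 0.26 without the rod-positive libraries and ran from -5.12 to 0.54 without 1 cell. The *Grik5* difference between ON and OFF alpha cells reversed to -0.98 with quantile normalization and to -0.88 without the rod-positive libraries. Apart from the averaging of probe sets, the cause of these changes was not tested. Cells with *Grin1* and a *Grin2* subunit were not counted, since *Grin1* was not analysed here. No paired analysis was possible because each cell has a number of its own.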
